A study of Homo sapiens with 2 samples.

Results

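Histone genes fall into 2 kinds. The clustered, replication-dependent genes lie mainly in groups on chromosomes 6 and 1 and encode the core histones H2A, H2B, H3 and H4 and most linker histones H1. The variant genes lie apart from these groups and encode proteins that replace the core and linker histones in chromatin outside DNA replication, with the exception of H2AX, whose mRNA can take either form. The set described here holds every gene of the files whose current symbol starts with H1-, H2AC, H2BC, H3C or H4C, together with H2AJ, H2AX, H2AZ1, H2AZ2, H3-3A, H3-3B, MACROH2A1 and MACROH2A2. These were 85 of the 27685 genes, namely 69 clustered genes, 12 variant genes, 3 pseudogenes and 1 antisense gene.

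RNA sequencing was carried out on PLC/PRF/5 cells, an established hepatocellular carcinoma line, after 24 h with 6 µM JIB-04, a small molecule that inhibits Jumonji histone demethylases, and after 24 h with DMSO, the solvent. There was 1 library of each condition. The DMSO library is titled as DMSO but its treatment field calls it untreated. No group was replicated, so no test was possible and every difference below is a difference between 2 libraries. The intervals given are 95% exact conditional binomial intervals of the estimated number of fragments and cover counting error only. Estimated aligned fragments numbered 23721989 with JIB-04 and 28187793 with DMSO. Of 9 hepatocyte markers, 8 reached a TPM of 1, with a median log2 ratio of -0.04. FGB (fibrinogen beta chain) was at 961 TPM with JIB-04 and 771 TPM with DMSO. On the ratio of TPM + 1 defined below, APOB (apolipoprotein B) was the only one past 2-fold, at 32.9 TPM with JIB-04 and 103 TPM with DMSO. Summed over the 9 markers, the level was 1790 TPM with JIB-04 and 1686 TPM with DMSO. FGB, TF, SERPINA1 and AFP gave nearly all of this sum. ALB (albumin) was at 4.53 TPM with JIB-04 and 9.74 TPM with DMSO. It passed 2-fold in TPM itself but not on the ratio of TPM + 1 (log2 ratio -0.96). The 9 markers of other cell types summed to 149 TPM with JIB-04 and 115 TPM with DMSO. Of these, PTPRC and HBB were listed at 0 in both libraries and CD68 gave most of the sum.

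TPM scales a library to 1000000 transcripts after correction for length, and a gene's TPM is the sum over its transcripts. Levels of genes are compared on this scale. A gene was described where it reached a TPM of 1 in either library, and the log2 ratio below divides TPM + 1 in the JIB-04 library by TPM + 1 in the DMSO library, which understates the change of low genes. Over all 14450 described genes, JIB-04 was at least 2-fold above DMSO in 5.99% and at least 2-fold below it in 6.88%, and the median log2 ratio was -0.15.

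The measurement has a limit that falls on the clustered genes. Most mRNAs of clustered histone genes end in a conserved stem-loop without a poly(A) tail, made by cleavage after the hairpin with the help of SLBP, the protein that binds it. The libraries were made with a kit that selects poly(A)-bearing mRNA. The levels of clustered genes therefore count only those histone RNAs that were captured, including forms that carry a poly(A) tail, and not the whole pool of histone mRNA. Variant mRNAs are polyadenylated, with H2AX having both kinds of end.

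The stem-loop was looked for in GENCODE transcripts as a 16-base histone hairpin whose 6 stem positions can all pair, on the strand of the transcript. It was present in 31 of 69 clustered genes (44.9%), in 1 of 12 variant genes (8.33%) and in 86 of 19621 other protein-coding genes (0.438%). Most clustered genes without a match have only a transcript of about coding length in this annotation, such as H2BC12 (381 bases) and H4C12 (312 bases). A missing match there says nothing about the gene, so the share of clustered genes is a lower bound. The commonest form, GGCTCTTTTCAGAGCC, was shared by 17 genes. The hairpins shown belong to 4 clustered genes that passed 2-fold upward with JIB-04, to H4C11 and to H2AX, the variant whose transcript holds the motif. The capitals mark the 16 bases of the stem-loop, and coordinates are GRCh38, as they are for the sequences only.
H2BC5 stem-loop (chr6:26158582-26158607, plus strand): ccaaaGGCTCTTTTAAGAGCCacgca
H2AC18 stem-loop (chr1:149842218-149842243, minus strand): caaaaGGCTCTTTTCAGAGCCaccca
H3C6 stem-loop (chr6:26225591-26225616, plus strand): ccaaaGGCTCTTCTCAGAGCCaacca
H4C8 stem-loop (chr6:26285126-26285151, minus strand): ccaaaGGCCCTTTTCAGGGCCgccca
H4C11 stem-loop (chr6:27824454-27824479, plus strand): taaaaGGCCCTTTTCAGGGCCaccct
H2AX stem-loop (chr11:119094893-119094918, minus strand): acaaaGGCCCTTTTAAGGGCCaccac

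The variant genes gave most of the histone mRNA measured, and their summed level was lower with JIB-04. The sum was 1043 TPM with JIB-04 and 1667 TPM with DMSO, a ratio of 0.626. It leaves out the record H3P6, which overlaps H3-3A and was listed at 347 TPM with JIB-04 and 445 TPM with DMSO. In bulk RNA a smaller share of cells that express a gene and less of its RNA per cell cannot be told apart. Of 10 described variant genes, 3 were at least 2-fold lower, 1 was at least 2-fold higher and 6 lay within 2-fold, with a median log2 ratio of -0.61. Over all genes these shares were 6.88% and 5.99%. All of them but 1 reached a TPM of 1 in both libraries, and H1-7 and H1-8, linker histones of germ cells, were listed at 0 in both.

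H2AX, the H2A variant phosphorylated at DNA double-strand breaks, had 37.5 TPM with JIB-04 and 113 TPM with DMSO, with a log2 ratio of -1.57 (-1.70 to -1.44; 587 fragments with JIB-04 and 2142 with DMSO). H2AZ2, which encodes one of the H2A.Z proteins found around transcription start sites, had 75.8 TPM with JIB-04 and 201 TPM with DMSO, with a log2 ratio of -1.39 (-1.47 to -1.32). H2AJ, a replication-independent H2A whose level is known to rise in senescent cells, was at 3.25 TPM with JIB-04 and 27.4 TPM with DMSO, from 117 fragments with JIB-04 and 1190 with DMSO. These 3 variants are of the H2A family, as are H2AZ1, MACROH2A1 and MACROH2A2, which lay within 2-fold. The intervals of H2AX, H2AZ2 and H2AJ lay wholly below a log2 ratio of -1.

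The other variants named here, H3-3A apart, lay within 2-fold. H2AZ1, the most abundant histone gene of both libraries, was at 386 TPM with JIB-04 and 656 TPM with DMSO (log2 ratio -0.77), and H1-10, a linker histone, was at 66.6 TPM with JIB-04 and 116 TPM with DMSO (-0.80). H3-3B, 1 of the genes for the H3.3 protein that is deposited outside replication, was at 168 TPM with JIB-04 and 200 TPM with DMSO (-0.25), and MACROH2A1, which carries a large macrodomain, was at 198 TPM with JIB-04 and 214 TPM with DMSO (-0.11). MACROH2A2 was at 12.3 TPM with JIB-04 and 9.03 TPM with DMSO (0.40).

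H3-3A was listed at 2.28 TPM with JIB-04 and 0.52 TPM with DMSO, the only variant at least 2-fold higher, but from 24 fragments with JIB-04 and 7 with DMSO. In these files 98.1% of its exonic bases are shared with the record H3P6, a pseudogene by name, placed on the same strand at chr1:226250428-226259703 (hg19), which was listed at 347 TPM with JIB-04 and 445 TPM with DMSO. Summed over both records the level was 349 TPM with JIB-04 and 446 TPM with DMSO, with a log2 ratio of -0.35 (-0.41 to -0.29), which is the other direction. Reads of the 2 records cannot be told apart over the shared bases.

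**Figure D1:**
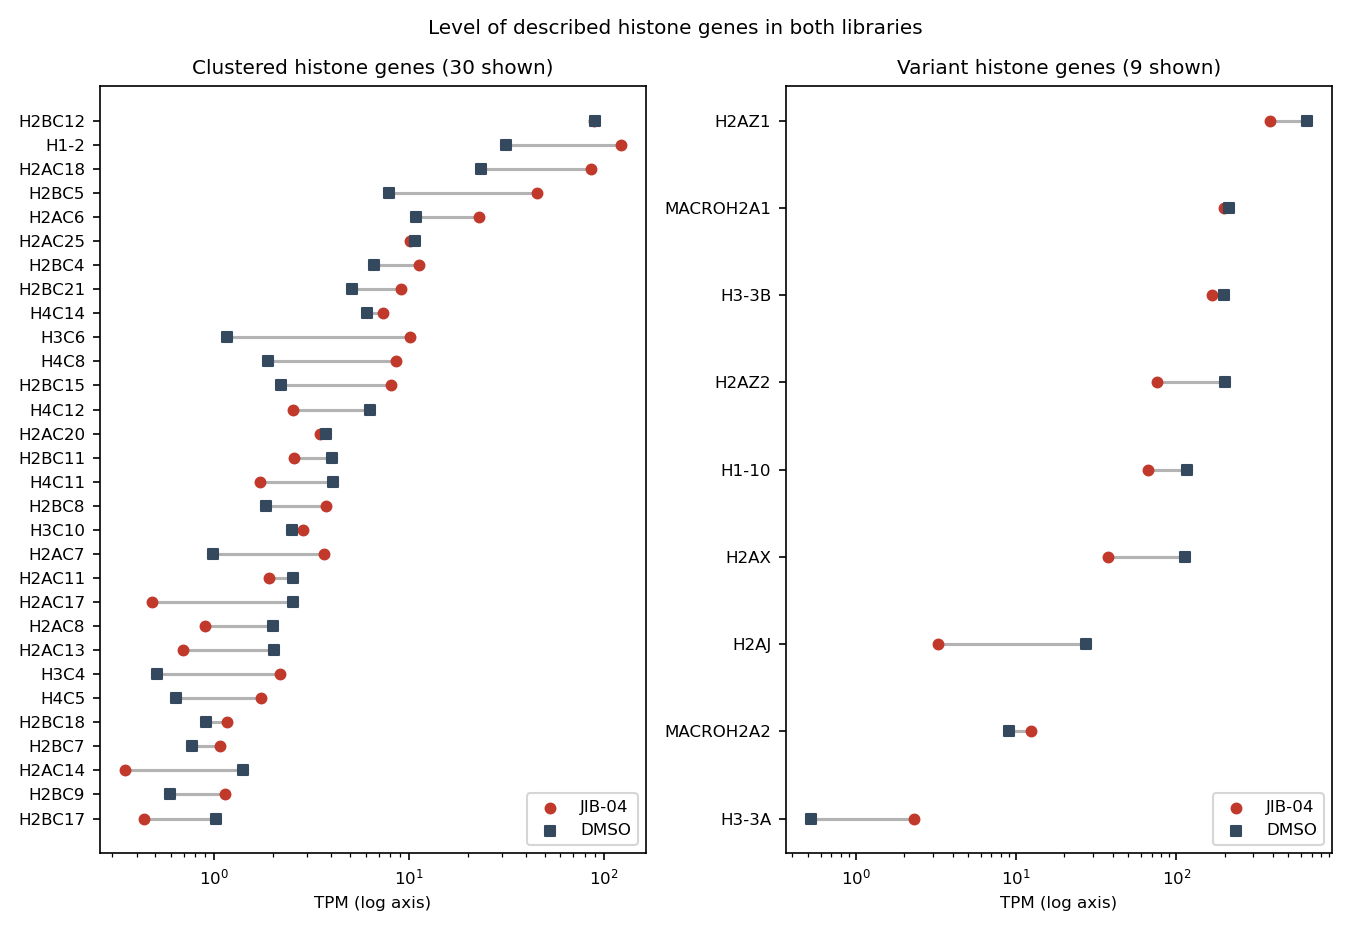
TPM of the described clustered genes (left) and variant genes (right) in the JIB-04 library (red circles) and in the DMSO library (dark squares), on a log axis, with 1 variant gene not shown. Most variants lie at or above 10 TPM with the JIB-04 point to the left, while H1-2, H2AC18 and H2BC5, among the highest clustered genes, have the JIB-04 point to the right.

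A few clustered genes were several-fold higher with JIB-04, and the rest lay on either side of the DMSO level. Their sum was 472 TPM with JIB-04 and 245 TPM with DMSO, a ratio of 1.93. H1-2, H2AC18 and H2BC5 made most of this difference: without these genes the sums were 218 TPM with JIB-04 and 182 TPM with DMSO, a ratio of 1.19. Of the 69 genes, 30 were described, 10 were listed at 0 in both libraries, and the other genes stayed under a TPM of 1. Of the 30, 9 passed 2-fold upward, 2 passed it downward and 19 lay within it, with a median log2 ratio of 0.24, beside 5.99% and 6.88% and a median of -0.15 over all genes. Only 19 of the 30 reached a TPM of 1 in both libraries; 6 were described through the JIB-04 library alone and 5 through the DMSO library alone and so entered through the library in which they were the higher.

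H1-2, a linker histone, had 123 TPM with JIB-04 and 31.5 TPM with DMSO, with a log2 ratio of 1.93 (1.74 to 2.13; 886 fragments with JIB-04 and 275 with DMSO). H2BC5 had 45.7 TPM with JIB-04 and 7.86 TPM with DMSO, with a log2 ratio of 2.40 (2.07 to 2.75; 362 fragments with JIB-04 and 72 with DMSO). H2AC18 was at 85.8 TPM with JIB-04 and 23.5 TPM with DMSO (1.83, 1.57 to 2.10), but this gene has a copy, H2AC19, whose exons occupy the same bases of the files, so the reads of both cannot be told apart. H3C6, an H3 gene, was at 10.1 TPM with JIB-04 and 1.16 TPM with DMSO (2.36, 1.60 to 3.08). The intervals of these 4 genes lay above a log2 ratio of 1, and those of the other 5 higher genes reached below it.

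H4C8, an H4 gene, was at 8.56 TPM with JIB-04 and 1.90 TPM with DMSO (1.72, 31 fragments with JIB-04 and 8 with DMSO), and H2BC15 was at 8.07 TPM with JIB-04 and 2.21 TPM with DMSO (interval 0.73 to 2.22). H2AC6 was at 22.8 TPM with JIB-04 and 10.9 TPM with DMSO and only just passed 2-fold (1.00, interval 0.59 to 1.40). H2AC7 and H3C4 were at 3.65 TPM with JIB-04 and 0.98 TPM with DMSO and at 2.18 TPM with JIB-04 and 0.51 TPM with DMSO. H3C4 has an exon that overlaps H2AC7, but that exon was listed at a coverage of 0 in both libraries, and the coverage of H3C4 lay in its other exon. Among the highest genes within 2-fold, H2BC12 was at 89.6 TPM with JIB-04 and 90.7 TPM with DMSO (-0.02), H2AC25 at 10.1 TPM with JIB-04 and 10.7 TPM with DMSO, H2BC4 at 11.2 TPM with JIB-04 and 6.60 TPM with DMSO (0.69), H2BC21 at 9.08 TPM with JIB-04 and 5.10 TPM with DMSO (0.73) and H4C14 at 7.38 TPM with JIB-04 and 6.07 TPM with DMSO. H4C14 shares all its exonic bases with H4C15. The 2 lower genes were H4C12 at 2.53 TPM with JIB-04 and 6.32 TPM with DMSO (-1.05, 9 fragments with JIB-04 and 27 with DMSO) and H2AC17 at 0.48 TPM with JIB-04 and 2.55 TPM with DMSO (-1.26, 2 fragments with JIB-04 and 15 with DMSO), neither of whose intervals lay wholly below -1. All the 50-base stretches of the GENCODE transcript of H4C12 also occur in H4C11. Of those of H2AC17, 86.3% also occur in transcripts of other genes, as do 74.1% of those of the 381-base H2BC12 transcript.

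The remaining described clustered genes were scarce and within 2-fold on the ratio of TPM + 1, though several passed 2-fold in TPM itself. H2BC8 was at 3.77 TPM with JIB-04 and 1.84 TPM with DMSO, H2BC11 at 2.56 TPM with JIB-04 and 4.02 TPM with DMSO, and H2AC20 at 3.48 TPM with JIB-04 and 3.74 TPM with DMSO. H2AC13 was at 0.69 TPM with JIB-04 and 2.03 TPM with DMSO, H2AC14 at 0.35 TPM with JIB-04 and 1.41 TPM with DMSO and H4C5 at 1.75 TPM with JIB-04 and 0.64 TPM with DMSO. At this depth such values are weak evidence in either direction: of the 19 genes within 2-fold, 14 had an interval that reached past it, and the scarcest described gene had 8 fragments over both libraries.

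**Figure D2:**
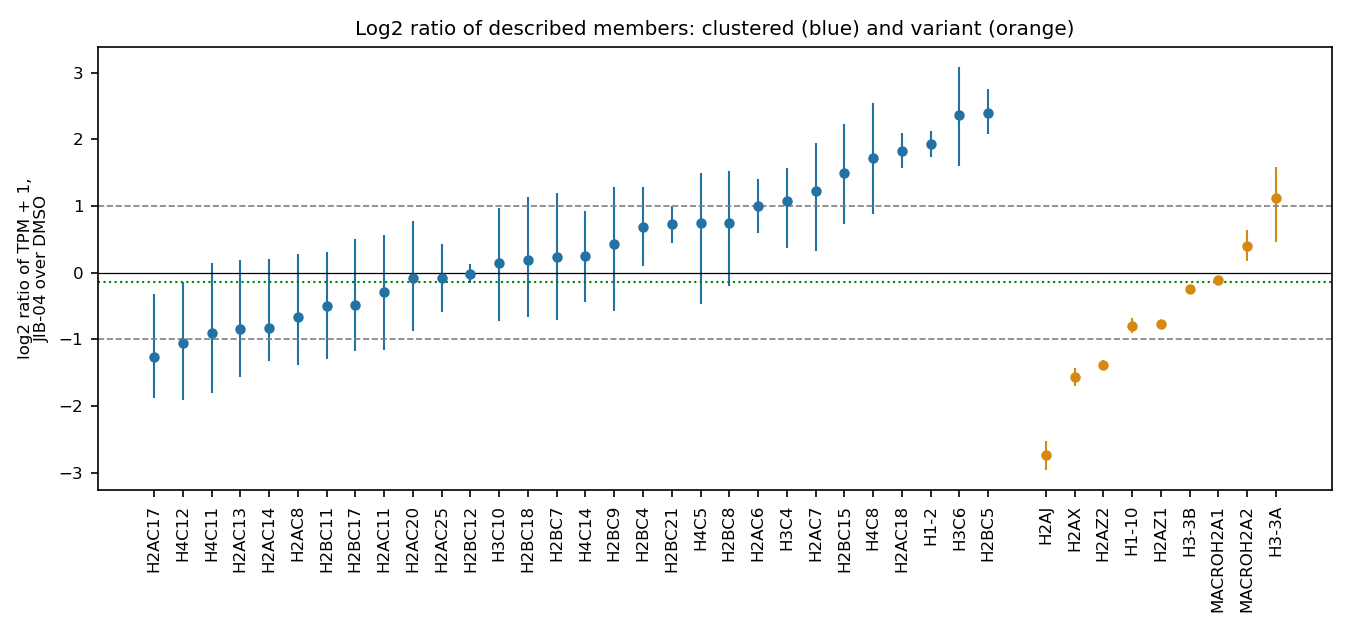
Log2 ratio of TPM + 1, JIB-04 over DMSO, of the described clustered genes (blue) and variant genes (orange), sorted within each class, with its 95% counting interval and with 1 variant gene not shown. Dashed lines mark 2-fold and the dotted line the median of all described genes (-0.15); clustered genes span -1.26 to 2.40 and variants -2.74 to 1.11, and the narrow orange intervals reflect the greater depth of the variants.

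By family, the summed level of clustered genes was higher with JIB-04 in each, and in most families 1 gene made most of the difference. Linker histone genes summed to 124 TPM with JIB-04 and 32.4 TPM with DMSO, nearly all of it H1-2. The H2A genes summed to 132 TPM with JIB-04 and 62.0 TPM with DMSO, and the H2B genes to 175 TPM with JIB-04 and 123 TPM with DMSO. Without H2AC18 the H2A sums were 45.8 TPM with JIB-04 and 38.6 TPM with DMSO, and the median log2 ratio of the described H2A genes was -0.18. Without H2BC5 the H2B sums were 129 TPM with JIB-04 and 115 TPM with DMSO. The H3 genes summed to 17.9 TPM with JIB-04 and 7.37 TPM with DMSO and the H4 genes to 24.0 TPM with JIB-04 and 20.3 TPM with DMSO. Without H3C6 the H3 sums were 7.76 TPM with JIB-04 and 6.21 TPM with DMSO. The H4 sum had the smallest ratio, with H4C8 higher and H4C12 lower, and H4C11 at 1.71 TPM with JIB-04 and 4.08 TPM with DMSO. Clustered and variant sums lay closer together with JIB-04: the variant sum was 2.21 times the clustered sum with JIB-04 and 6.80 times with DMSO. The variant sums leave out the record H3P6 and would be larger with it.

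The genes on chromosome 6 lie in 2 runs, parted by the widest gap between neighbours (814368 bases). The first run, from base 25726291 to 26285727 of hg19, holds 34 genes, of which 13 were described, with 7 at least 2-fold higher and none lower. Its sum was 241 TPM with JIB-04 and 70.3 TPM with DMSO. Most of it came from H1-2 (123 TPM with JIB-04 and 31.5 TPM with DMSO) and H2BC5 (45.7 TPM with JIB-04 and 7.86 TPM with DMSO). The second run, from 27100095 to 27861669, holds 21 genes, 11 described, with 1 higher (H2BC15) and 2 lower (H4C12 and H2AC17). Its sum was 113 TPM with JIB-04 and 124 TPM with DMSO, most of it from H2BC12 (89.6 TPM with JIB-04 and 90.7 TPM with DMSO). Over all genes 5.99% were higher and 6.88% lower. In the first run 5 of the 13 were described through the JIB-04 library alone and 1 through the DMSO library alone, and in the second 4 of the 11 through the DMSO library alone. The median log2 ratio was 1.00 in the first run and -0.50 in the second. The split by the gap was made after the values had been seen and is a description. H2AC8, at 0.90 TPM with JIB-04 and 2.01 TPM with DMSO, was the only described gene of the first run with a negative ratio. H3C10 and H2BC15 were the only ones of the second with a positive one. The intervals of H2AC8 (-1.38 to 0.28) and H3C10 (-0.73 to 0.97) included 0, as did those of most genes within 2-fold in both runs. The ratio of H2BC12, -0.02, was 0.13 with well expressed genes centred on 0 and 0.09 with quantile normalization.

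**Figure D3:**
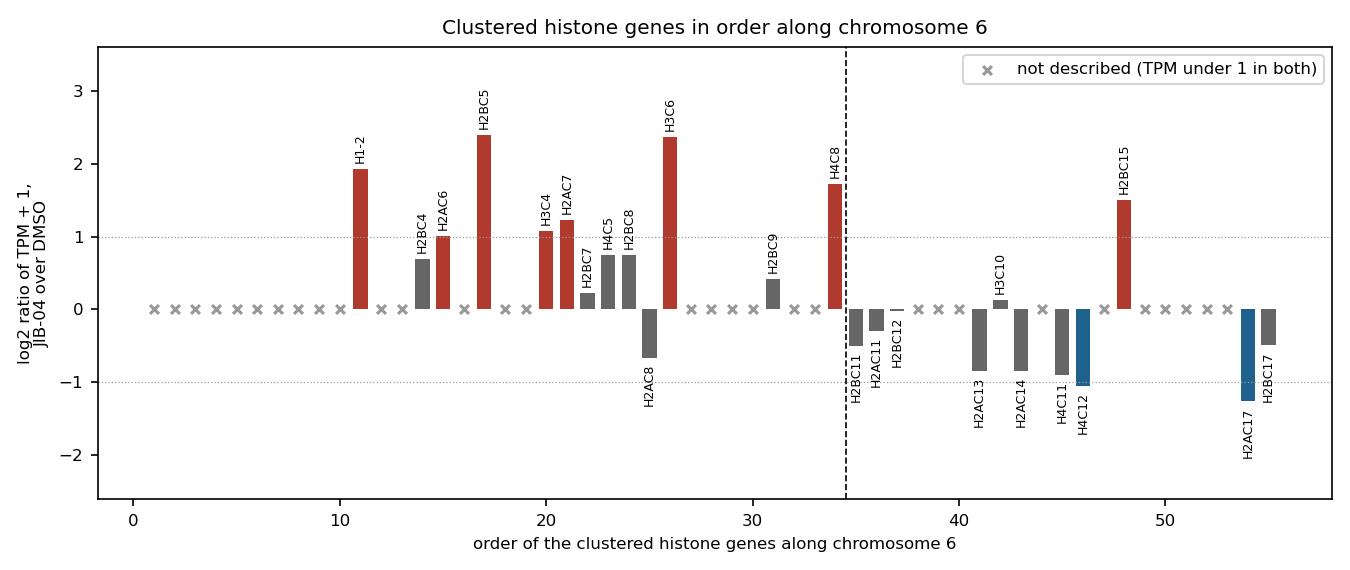
Log2 ratio of TPM + 1, JIB-04 over DMSO, of the clustered genes in their order along chromosome 6, with bars for described genes (red at least 2-fold higher, blue at least 2-fold lower, grey within 2-fold) and crosses for genes under a TPM of 1 in both libraries. The dashed line marks the widest gap; 7 genes at least 2-fold higher lie to its left and 1 to its right.

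Many H2A and H2B genes sit head to head and share the stretch between their starts. Of 13 such pairs with starts under 1000 bases apart, 7 had both genes described. In 5 of these the ratios had the same sign. H2BC7 counts among the 5 both with H2AC7 and with H3C4, which has the start of H2AC7. The H3C4 exon at that start had a coverage of 0 in both libraries. The log2 ratio of H2BC7, 0.23, rested on 5 fragments with JIB-04 and 4 with DMSO. H2AC6 and H2BC4 had log2 ratios of 1.00 and 0.69, H2AC11 and H2BC11 of -0.29 and -0.50, and H2AC17 and H2BC17 of -1.26 and -0.49. In H2AC8 and H2BC8 (-0.66 and 0.75) and in H2AC20 and H2BC21 (-0.08 and 0.73) the ratios of a pair had opposite signs. The intervals of H2AC8, H2BC8, H2AC20, H2AC11, H2BC11, H2BC17 and H2BC7 included 0, so the counts do not fix their signs. Only in the pair H2AC6 and H2BC4 did both intervals exclude 0. No pair had both genes at least 2-fold higher.

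For H2BC5 and H2BC12 the annotation holds 2 forms, a 1-exon transcript and a transcript that splices to a distal exon. In the GENCODE annotation the 1-exon form of H2BC5 holds the stem-loop shown above and the 2-exon form does not. The higher level of H2BC5 with JIB-04 lay in the 2-exon form, at 44.6 TPM with JIB-04 and 6.93 TPM with DMSO, while the 1-exon form was at 1.07 TPM with JIB-04 and 0.93 TPM with DMSO. The distal exon, 12415 bases downstream, had a coverage, scaled to 1000000 estimated fragments, of 3.43 with JIB-04 and 0.36 with DMSO, a ratio of 9.49. The ratio for the first exon was 5.08. H2BC12 was likewise carried by its 2-exon form, at 89.1 TPM with JIB-04 and 88.0 TPM with DMSO, with the distal exon 7727 bases away covered at 7.17 with JIB-04 and 7.42 with DMSO on that scale. The most abundant H2B genes of these libraries were thus measured through spliced forms.

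H2AZ2 ends in either of 2 terminal exons. The nearer one, of 949 bases, was covered at 1.72 on the same scale with JIB-04 and 9.54 with DMSO, a ratio of 0.181. The farther one, of 3275 bases, was covered at 3.12 with JIB-04 and 5.93 with DMSO, a ratio of 0.526. The farther exon therefore made 64.4% of the coverage of both with JIB-04 and 38.3% with DMSO. In MACROH2A1, by contrast, the share of the shorter of 2 mutually exclusive exons was 21.2% with JIB-04 and 21.3% with DMSO, although the transcript with that exon was listed at 69.1 TPM with JIB-04 and 30.8 TPM with DMSO. The listed transcript values and the coverage of the exon they rest on thus differ for this gene.

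**Figure D4:**
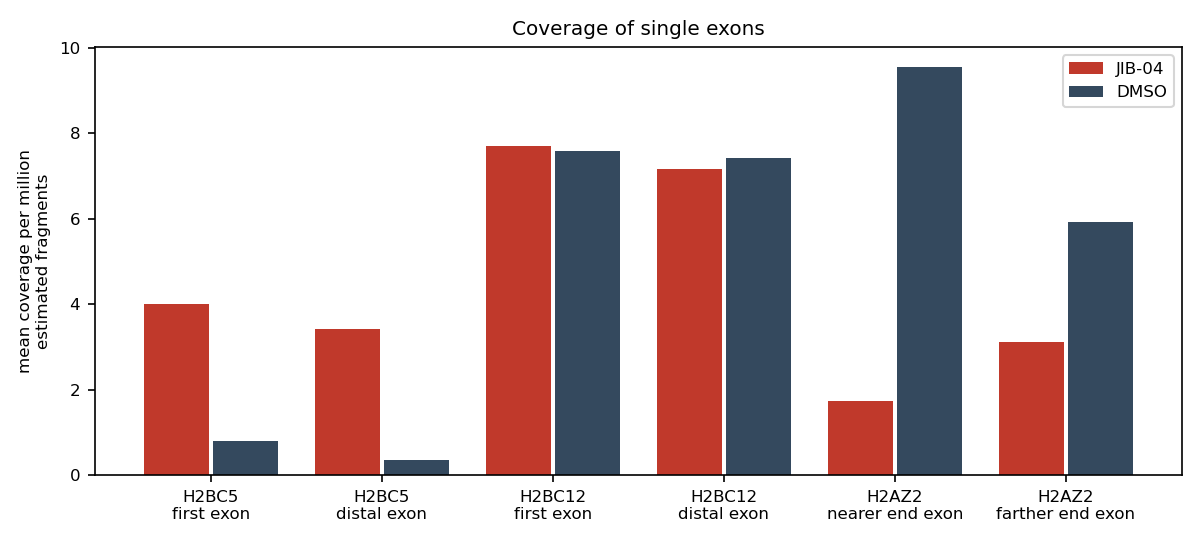
Mean coverage, scaled to 1000000 estimated fragments, of single exons of H2BC5, H2BC12 and H2AZ2 with JIB-04 (red) and DMSO (dark). The distal exon of H2BC5 stands at 3.43 with JIB-04 and 0.36 with DMSO, those of H2BC12 are alike in both libraries, and the nearer end exon of H2AZ2 is the lower of its 2 with JIB-04 and the higher with DMSO.

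Promoters of clustered genes carry elements that recruit the transcription machinery in S phase, among them a TATA box, CCAAT boxes and, in H2B genes, an octamer bound by POU2F1. Over the 250 bases before to 50 bases after the start, on either strand, TATAAA was found in 65.6% of 64 clustered promoters, in 36.4% of 11 variant promoters and in 3264 of all 27305 promoters. CCAAT was found in 84.4% of clustered, 72.7% of variant and 35.7% of all promoters, and the octamer ATGCAAAT in 40.6%, 9.09% and 1.80%. Among H2B genes the octamer was in 77.8%, and among the other clustered genes in 26.1%. Of the 9 clustered genes past 2-fold upward, 4 held TATAAA, 8 CCAAT and 3 the octamer, and of the 21 other described clustered genes 15, 17 and 14 did. Only 2 of the 11 described H2B genes were among the 9. The octamer counts of these groups therefore cannot be told apart from their family makeup. H2AC7 and H3C4, both among the 9, were given the same promoter, so the 9 genes stand for 8 promoters. The H3C4 exon at that start had a coverage of 0 in both libraries. The H3C6 promoter ends at base 26224177, while the stem-loop of its 462-base transcript lies at 26225591-26225616. For H3C4 and H3C6 the matches therefore need not be those of the promoter used. These are matches of letters and do not show that a factor was bound. The promoters of 2 higher genes, of a lower clustered gene and of the lowest variant are given as RefSeq sequences on GRCh38.p14, 150 bases ending just before the start, with the motif letters in capitals.
H2BC5 promoter (chr6:26157971-26158120, plus strand): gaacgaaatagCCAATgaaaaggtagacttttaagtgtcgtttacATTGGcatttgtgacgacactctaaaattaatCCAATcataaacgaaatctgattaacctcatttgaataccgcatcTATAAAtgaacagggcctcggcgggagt
H2AC18 promoter (chr1:149842751-149842900, minus strand): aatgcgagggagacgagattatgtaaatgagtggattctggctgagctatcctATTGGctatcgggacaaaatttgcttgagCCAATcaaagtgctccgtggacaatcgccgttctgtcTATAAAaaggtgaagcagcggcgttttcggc
H2AC17 promoter (chr6:27893186-27893335, minus strand): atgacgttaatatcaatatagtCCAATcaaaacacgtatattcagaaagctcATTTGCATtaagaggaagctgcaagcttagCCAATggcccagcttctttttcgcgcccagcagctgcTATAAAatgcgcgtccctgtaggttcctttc
H2AJ promoter (chr12:14774255-14774404, plus strand): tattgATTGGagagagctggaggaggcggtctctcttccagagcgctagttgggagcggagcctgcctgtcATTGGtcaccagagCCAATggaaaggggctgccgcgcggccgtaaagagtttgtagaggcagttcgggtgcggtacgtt

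The lists of genes that make and handle histone mRNA had medians below 0, as all genes together had. Of 7 genes for transcription of clustered genes, 1 was at least 2-fold lower and none higher, with a median log2 ratio of -0.41, beside 6.88% lower, 5.99% higher and a median of -0.15 over all genes. NPAT, the coactivator at histone loci, was at 4.83 TPM with JIB-04 and 6.74 TPM with DMSO, and CASP8AP2, which is needed for histone gene expression, was at 11.3 TPM with JIB-04 and 18.4 TPM with DMSO. CDK2, which phosphorylates NPAT, was the lower gene, at 60.1 TPM with JIB-04 and 130 TPM with DMSO. In the list of 10 genes for 3′ end processing none passed 2-fold and the median was -0.38, with SLBP at 70.5 TPM with JIB-04 and 93.7 TPM with DMSO. The 5 genes of histone mRNA decay also had none past 2-fold (median -0.32).

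The list of chaperones that supply histones to replicating DNA had a median of -0.75, with 3 of 13 genes at least 2-fold lower and none higher, beside the same 6.88% and 5.99% over all genes, which also stand beside the next lists. ASF1B was at 23.8 TPM with JIB-04 and 72.0 TPM with DMSO, and ASF1A at 10.2 TPM with JIB-04 and 27.4 TPM with DMSO. Of 14 genes for deposition of variants, CABIN1 was at least 2-fold higher, at 56.0 TPM with JIB-04 and 23.1 TPM with DMSO, none was lower, and the median was -0.20. The S phase list, 15 genes for DNA replication, had a median of -0.89 with 3 lower and none higher, such as MCM6 at 46.2 TPM with JIB-04 and 103 TPM with DMSO and GINS1 at 11.1 TPM with JIB-04 and 30.4 TPM with DMSO. Among RNAs without a poly(A) tail, MALAT1 was at 111 TPM with JIB-04 and 17.5 TPM with DMSO. RMRP, at 2.68 TPM with JIB-04 and 6.89 TPM with DMSO, rested on 7 fragments with JIB-04 and 22 with DMSO, and RPPH1, at 2.08 TPM with JIB-04 and 1.23 TPM with DMSO, on 7 fragments with JIB-04 and 5 with DMSO, both near the limit of counting. The part of the S phase genes and of RNA without a poly(A) tail in the clustered values was not tested.

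**Figure D5:**
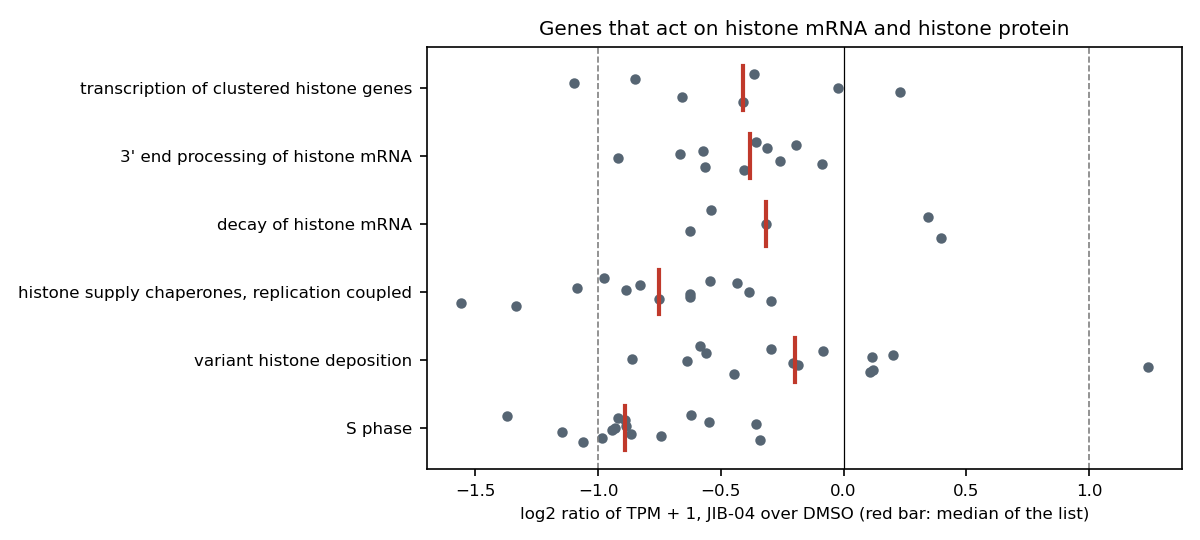
Log2 ratio of TPM + 1, JIB-04 over DMSO, of each described gene of 6 lists of genes that act on histone mRNA or histone protein or mark S phase; red bars are the list medians and dashed lines mark 2-fold. Medians run from -0.20 for variant deposition to -0.89 for S phase, all below 0.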

How the data were processed

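RNA from PLC/PRF/5 cells was sequenced as 1 library with JIB-04 and 1 with DMSO. Tools named in the submitters' processing notes are StringTie 1.3.3b, HISAT2 2.0.5, Bowtie2 2.2.6, FastQC 0.11.5 and Trimmomatic 0.32, with the build hg19. The values the authors deposited are coverage, FPKM and TPM per annotated transcript, with no read counts. Read lengths are not given in the labels or methods used here. Symbols came from a RefSeq table of GRCh38.p14, for names only (27559 of 27685 IDs), and coordinates of genes are those of the files. TPM was summed per gene. A transcript's fragments were estimated by dividing its coverage times its length by 202 bases, the most frequent aligned length on weakly covered transcripts. Reads shared by near-identical copies could be split between them by StringTie. With 1 library per condition no test was made. The calls and intervals were tried on simulated counts with known changes, which hold counting error only and no variation between libraries. The genes named are the described variant genes (1 is not reported here, though it is counted in the class totals), the 12 clustered genes with the highest mean TPM, those past 2-fold with a mean TPM of at least 5, up to 4 genes of each list and NPAT, CASP8AP2 and SLBP; others were named where a pair, copy or run called for it. The members and lists were chosen with earlier results of these data known. Analyses used Python 3.11.15, pandas, SciPy and GENCODE v29 transcripts. The alternatives tried were other pseudocounts, filters, scalings, fold thresholds and left-out members.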

Additional observations from a re-analysis of the deposited data

How the results depend on the processing

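No paired analysis was possible because each condition had 1 library. The count of 9 higher clustered genes was 4 with a pseudocount of 5, 5 with a 3-fold threshold and 6 with FPKM. It was 7 with TPM of at least 5 and 8 without the duplicated chromosome 1 members. With a pseudocount of 0.1 it was 10, and with a 1.5-fold threshold 13. The 2 lower clustered genes became 7 with a pseudocount of 0.1, 6 with a 1.5-fold threshold, 1 with TPM of at least 5, with well expressed genes centred on 0 (a shift of -0.15) or with quantile normalization, and 0 with a pseudocount of 5, with FPKM or with a 3-fold threshold. The clustered median of 0.24 was 1.00 with TPM of at least 5, 0.73 without members under 20 fragments, 0.52 with FPKM and 0.00 with no filter. The 3 lower variants were 5 with a 1.5-fold and 1 with a 3-fold threshold. The 1 higher variant, H3-3A, was 0 with a pseudocount of 5, TPM of at least 5, FPKM or a 3-fold threshold, and 0 when H3-3A was summed with H3P6, which turned its ratio to -0.35. Leaving out members under 20 fragments gave 1 lower clustered gene. These last 2 alternatives were chosen after seeing the data. Over all genes, 994 lower and 865 higher became 409 and 439 with a pseudocount of 5, 3030 and 1853 at 1.5-fold, and 154 and 318 at 3-fold. The share of higher among called genes, 46.5%, was 62.2% with that centring and 57.0% with quantile normalization; among clustered genes the 9 higher and 2 lower became 9 and 1 under both. Ratios near 0 changed sign under that centring in H2BC12 (0.13), H2AC25 (0.06) and MACROH2A1 (0.04). Of the 19 clustered genes within 2-fold, 14 had intervals reaching past it, so depth limits those calls.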

Other observations

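Among the genes outside both classes, H2BC20P, the pseudogene described, was at 6.76 TPM with JIB-04 and 7.86 TPM with DMSO, and H1-10-AS1, the antisense gene, was at 0.28 TPM with JIB-04 and 0.94 TPM with DMSO, below the level at which genes were described.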
